A study of Homo sapiens with 6 samples.

Results

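The proteasome is the protease that degrades most ubiquitin-tagged proteins of the cell, and its subunits are encoded by genes whose symbols begin with PSM. The 50 rows described here are the protein-coding rows of the deposited table whose symbol is PSM followed by a letter from A to G and a digit, out of 20311 protein-coding and 27420 listed genes. They carry 49 symbols, since PSMA2 is listed on 2 rows, and the second of these (ENSG00000256646, chr7:42948871-42971773) is a readthrough gene over the PSMA2 locus. A further row, PSMC3IP, matched the rule by name only: it encodes a meiotic recombination factor named for binding the proteasome ATPase PSMC3. The remaining rows fell into 8 alpha, 4 structural beta and 3 standard catalytic beta genes of the 20S core, 4 genes of the immunoproteasome and thymoproteasome, 9 genes of the base and 8 of the lid of the 19S regulatory particle, 5 genes of other activators and of an inhibitor, and 7 genes of assembly chaperones.

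RNA was taken from A673 and SKNMC, established human cell lines of Ewing sarcoma, a tumour of bone and soft tissue driven by the fusion protein EWS-FLI1. The cells were kept for 6 h in DMSO, the vehicle, or in THZ1, a covalent inhibitor of the transcription-initiation kinase CDK7, at 50 nM (low dose) or 200 nM (high dose). Each of the 6 conditions had 1 RNA-seq library, so differences between libraries have no replicate check, no test was made, and no difference below can be set against the spread between cultures. Levels are FPKM (sequenced fragments of a gene per length of its transcript and per mapped fragments), which can be compared between genes because they are divided by transcript length, and the read depth behind them is unknown.

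The 20S core is a barrel of alpha subunits at the ends and beta subunits in the middle, and 3 of its beta subunits, PSMB5, PSMB6 and PSMB7, carry the proteolytic sites. The 19S particle caps the barrel: its base unfolds substrates with a ring of ATPases, and its lid removes their ubiquitin. In cells exposed to interferon the inducible subunits PSMB8, PSMB9 and PSMB10 take the place of the standard catalytic subunits and shift the peptides that are cut towards those presented by MHC class I. Dedicated chaperones build the particle and leave it when it is complete, and the transcription factor NRF1, encoded by NFE2L1, is known to drive proteasome genes together when proteasome activity falls short.

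Markers of the labelled tumour were present: CD99, a surface protein used to diagnose Ewing sarcoma, stood between 313 and 763 FPKM. STEAP1, a membrane protein high in this tumour, stood between 70.2 and 208 FPKM. The other tumour markers looked at were lower, NKX2-2 at 3.60 to 37.6 FPKM and NR0B1 at 7.97 to 58.6 FPKM. STEAP1, NKX2-2 and NR0B1 all fell with dose in both lines, whereas CD99 stood above DMSO in each treated library. CD3E of T cells was listed at 0 and CDH1 of epithelium stayed at or below 0.0444 FPKM. EPCAM, also of epithelium, stood at or below 0.0889 FPKM in A673 and between 0.431 and 0.826 FPKM in SKNMC. The leukocyte gene PTPRC stood at or below 0.0291 FPKM in A673 and between 7.90 and 13.1 FPKM in SKNMC, and its part in the differences between the lines was not tested. Ribosomal protein genes held 13.7%, 16.1% and 17.7% of all FPKM in A673 at DMSO, 50 nM and 200 nM THZ1, and 19.0%, 24.7% and 29.7% in SKNMC, so every FPKM below is a share of a total whose make-up moved with dose.

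Of the 50 rows, 48 were active, meaning above 1 FPKM with DMSO, in A673 and the same number in SKNMC. The exceptions were PSMA8, an alpha subunit of the testis proteasome, which was listed at 0 in all 6 libraries, and PSMB11, the catalytic subunit of the thymus proteasome, which stood at or below 0.154 FPKM. Proteasome rows together held 1.33%, 1.43% and 1.4% of all FPKM in A673 at DMSO, 50 nM and 200 nM THZ1. In SKNMC they held 0.924%, 0.884% and 0.791%, lower than in A673 at each dose and lowest at the high dose.

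Before treatment the proteasome genes stood higher in A673 than in SKNMC. With DMSO, 37 of 48 rows were higher in A673, beside 4880 of the 10383 protein-coding genes active in both lines. Of the rows, 15 were at least 1.5-fold higher in A673, beside 16.8% of these genes. Only 3 rows, PSMB3, PSMB8 and PSMB9, were at least 1.5-fold higher in SKNMC, beside 20.1% of all genes in that direction. The median log2 ratio of SKNMC over A673 was -0.37 across the 48 rows and 0.047 across all genes active in both lines.

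This difference was not even across the particle. All 9 base genes were higher in A673, 6 of them at least 1.5-fold, and their median log2 ratio was -1.0. Among the base genes the widest gap was that of PSMC3, an ATPase (chr11:47440319-47447993), which stood at 348 FPKM in A673 and 85.5 FPKM in SKNMC, 4.07 times higher in A673. The standard catalytic genes were each at least 1.5-fold higher in A673, with a median log2 ratio of -1.15, whereas the 4 structural beta genes were split, 2 higher in A673 and 2 in SKNMC, with a median of -0.12. PSMB3, a structural beta subunit, was 113 FPKM in A673 and 176 FPKM in SKNMC. None of the 5 activator and inhibitor genes reached 1.5-fold in either direction. Among the chaperones PSMD5, which helps to assemble the base, was the only gene at least 1.5-fold apart, at 25.5 FPKM in A673 and 9.40 FPKM in SKNMC.

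**Figure D1:**
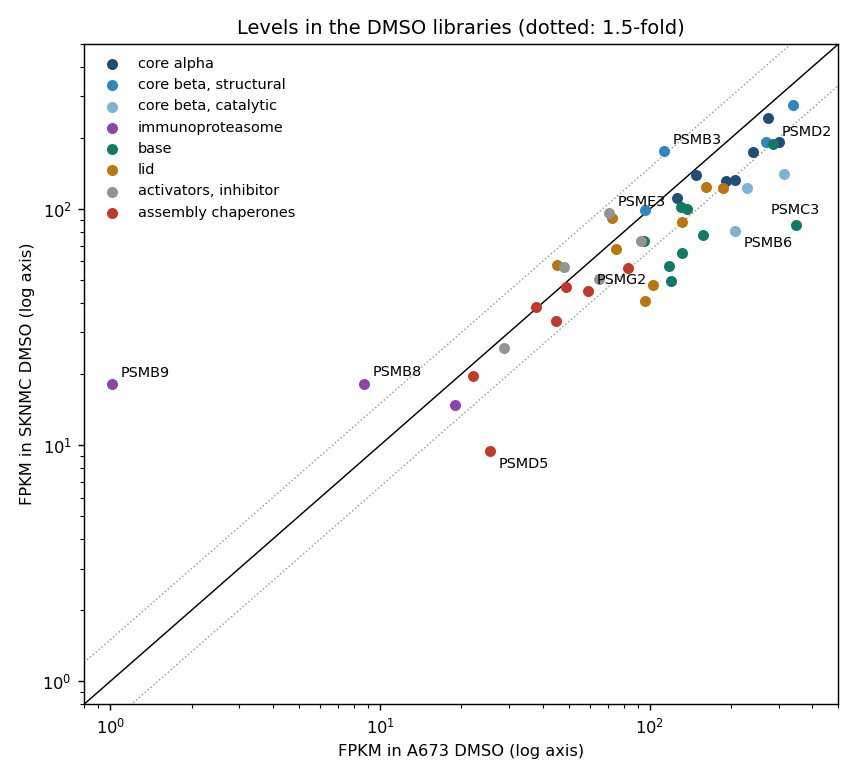
FPKM of the 46 proteasome genes of the 8 classes that are active in both lines, in the A673 DMSO library (x axis, log scale) and the SKNMC DMSO library (y axis, log scale), 1 point per gene and coloured by class. The solid line marks equal levels and the dotted lines a 1.5-fold difference; the 9 base genes all lie below the solid line, and PSMB9 and PSMB8 lie far above it.

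THZ1 lowered most active genes on the FPKM scale, so each contrast is given beside its background. Log2 fold changes were computed on FPKM with 1 added, which understates the change of low genes. In A673 at 50 nM, 6 of 48 proteasome rows were at least 1.5-fold lower than with DMSO, beside 31.6% of the 10819 active protein-coding genes, and none was 1.5-fold higher, beside 1.73%. At 200 nM in the same line 8 rows were at least 1.5-fold lower, beside 41.1%, and 1 row, PSME1, was higher, beside 1.65%. In SKNMC at 50 nM, 6 rows were lower, beside 33.2% of 11551 active genes, and none was higher, beside 2.33%. At 200 nM in SKNMC 17 rows were lower, beside 48.4%, and none was higher, beside 2.69%.

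At the stricter threshold of 2-fold the counts of lower rows were 3 and 5 in A673 at 50 and 200 nM, beside 15.8% and 25.4% of all active genes, and 2 and 9 in SKNMC, beside 15.6% and 27.6%. No proteasome row was 2-fold higher in any contrast, beside 0.305% and 0.12% of active genes in A673 at the low and high dose and 0.442% and 0.39% in SKNMC. On FPKM as deposited, the share of proteasome rows that were lower was thus below the share of all active genes in each contrast at both thresholds. At 1.5-fold this was reversed under other settings in SKNMC at 200 nM. With the libraries divided by the ribosomal protein genes, 43 of 48 rows were lower there, beside 77.2% of all active genes. Without a minimum level, 17 of 50 rows were lower, beside 28.0% of all protein-coding genes.

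The median log2 fold change of the 48 rows was 0.00075 and 0.056 in A673 at 50 and 200 nM, where the median of all active genes was -0.27 and -0.39. In SKNMC the rows had medians of -0.22 and -0.37 beside -0.32 and -0.55. The signs of these raw medians depend on the scaling: putting the libraries on a common 75th percentile of active genes made all 4 positive, and dividing by the ribosomal protein genes made all 4 negative. The difference between the median of the rows and that of all active genes, 0.27 and 0.45 in A673 and 0.092 and 0.19 in SKNMC, stayed positive under each scaling and was smallest in SKNMC when divided by the ribosomal protein genes, at 0.030 and 0.080. Without a minimum level, so that genes at or near 0 entered the median of all genes, that difference was negative in SKNMC, at -0.13 and -0.27. Of the 48 rows, 37 and 35 lay above the median of all active genes in A673 and 30 and 30 in SKNMC.

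**Figure D2:**
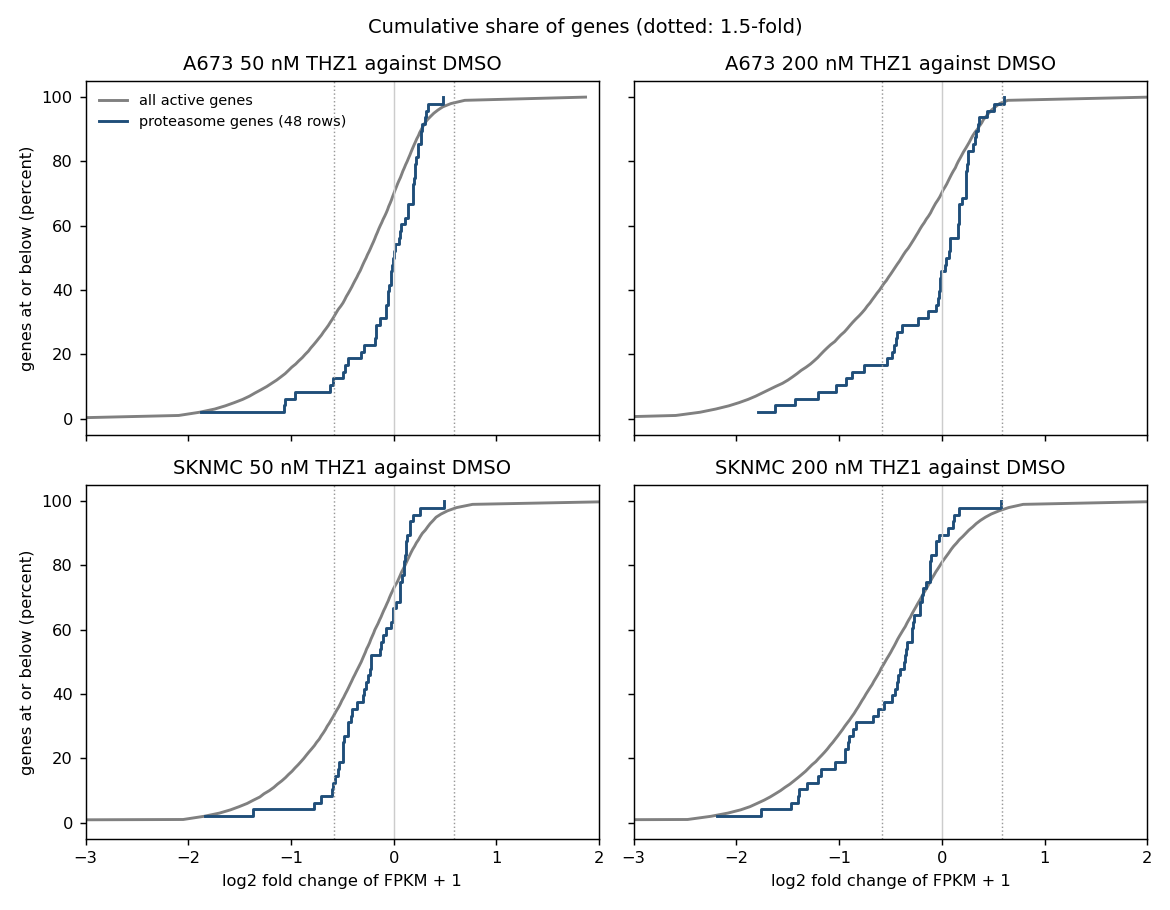
Cumulative share of genes (y axis, percent) at or below each log2 fold change of FPKM + 1 (x axis) in the 4 contrasts, for the active proteasome rows (blue, 48 rows) and all active protein-coding genes (grey). In A673 the blue curve runs to the right of the grey one over most of its length, with a gap between the medians of 0.27 and 0.45, while in SKNMC the gap is 0.092 and 0.19 and the curves cross near 0; the position of both curves against 0 moves with the scaling.

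The spread of the rows was narrower than that of all active genes in each contrast. Their interquartile range was 0.38 and 0.67 on the log2 scale in A673 at 50 and 200 nM, beside 0.79 and 1.09, and 0.56 and 0.76 in SKNMC, beside 0.79 and 0.95.

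Most 20S core genes had a higher log2 fold change than the median active gene. Across the core's 14 active standard genes the median log2 fold change was 0.21 and 0.22 in A673 and 0.072 and -0.14 in SKNMC, which relative to the median of all active genes was 0.48 and 0.61 in A673 and 0.39 and 0.42 in SKNMC. All 14 lay above the median of all active genes at both doses in A673, and 12 and 13 of 14 did so in SKNMC. None was 1.5-fold lower in A673 or at 50 nM in SKNMC, and PSMA5 alone was so at 200 nM in SKNMC. Relative to all active genes the medians of the alpha, the structural beta and the catalytic beta genes were positive in every contrast and under each scaling. Without a minimum level those of the alpha and catalytic genes were negative at 200 nM in SKNMC, at -0.073 and -0.070.

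Of the alpha genes, PSMA1 (chr11:14515328-14665181) had the highest mean log2 fold change over the 4 contrasts. Its levels with DMSO, 50 nM and 200 nM THZ1, an order kept in all lists of levels below, were 300.2, 378 and 353 FPKM in A673 and 192, 219 and 185 FPKM in SKNMC. It was above DMSO at both doses in A673 and at the low dose in SKNMC, with log2 fold changes of 0.33 and 0.23 in A673 and 0.19 and -0.053 in SKNMC. PSMA5 (chr1:109941652-109969062) had the lowest mean and measured 126, 122 and 115 FPKM in A673 and 111, 76.3 and 60.7 FPKM in SKNMC. The A673 libraries of PSMA5 lay close together, and the SKNMC libraries stepped down with dose, with log2 fold changes of -0.046 and -0.13 in A673 and -0.54 and -0.86 in SKNMC.

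The structural beta genes lay close to each other. PSMB4 (chr1:151372009-151374420), with the highest mean of this class, stood at 339.7, 388 and 437 FPKM in A673 and 276, 301 and 297 FPKM in SKNMC, above DMSO in each treated library. PSMB1 (chr6:170844204-170862429), with the lowest mean, measured 269, 311 and 300.4 FPKM in A673 and 192, 203 and 169 FPKM in SKNMC and was below DMSO only at 200 nM in SKNMC. Across the 4 genes the log2 fold changes ranged from 0.19 to 0.24 at 50 nM in A673 and from -0.19 to 0.11 at 200 nM in SKNMC.

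Among the standard catalytic genes PSMB5 (beta 5, the chymotrypsin-like site and the main target of the drug bortezomib) measured 314, 279 and 332 FPKM in A673 and 141, 103 and 111 FPKM in SKNMC. Its level was lowest at 50 nM in both lines, with log2 fold changes of -0.17 and 0.080 in A673 and -0.44 and -0.34 in SKNMC. PSMB6 (beta 1, the caspase-like site) measured 207, 239 and 244 FPKM in A673 and 80.7, 84.5 and 72.2 FPKM in SKNMC. PSMB7 (beta 2, the trypsin-like site) stood at 229.7, 278 and 264 FPKM in A673 and 123, 134 and 134 FPKM in SKNMC and was above DMSO in each treated library. Every A673 library of these 3 genes stood above every SKNMC library of the same gene, and no treated library differed from its DMSO library by 1.5-fold.

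The inducible catalytic genes made up a small share of catalytic FPKM in A673 and a larger one in SKNMC. PSMB8, PSMB9 and PSMB10 together were 3.67%, 3.35% and 4.19% of the FPKM of the 6 catalytic genes in A673 with DMSO, 50 nM and 200 nM THZ1. In SKNMC they were 12.9%, 11.5% and 10.2%. The lines did not overlap, and this pooled share was lower at each higher dose in SKNMC but not in A673. No single pair followed that order in SKNMC. There PSMB8 was 11.5%, 14.3% and 9.37% of the sum of PSMB8 and PSMB5. PSMB9 was 18.3%, 13.0% and 13.2% of its sum with PSMB6, and PSMB10 10.7%, 8.20% and 9.19% of its sum with PSMB7.

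PSMB9, the inducible counterpart of PSMB6 (chr6:32811912-32827362), accounted for the widest gap between the lines at 1.01, 1.11 and 1.73 FPKM in A673 and 18.1, 12.6 and 10.9 FPKM in SKNMC. Its log2 fold changes were 0.067 and 0.44 in A673 and -0.49 and -0.67 in SKNMC. PSMB8, the counterpart of PSMB5 (chr6:32808493-32812480), stood at 8.70, 8.66 and 10.9 FPKM in A673 and 18.2, 17.3 and 11.4 FPKM in SKNMC, with log2 fold changes of -0.0064 and 0.30 in A673 and -0.073 and -0.63 in SKNMC. PSMB8 and PSMB9 were each at least 1.5-fold lower at 200 nM in SKNMC, and both stood above DMSO at 200 nM in A673. On FPKM with 1 added neither of them reached 1.5-fold there, but with 0.1 added the log2 fold change of PSMB9 was 0.71, past that threshold. PSMB10, the counterpart of PSMB7, was the most level of the 3 between the lines, at 18.9, 17.8 and 24.1 FPKM in A673 and 14.7, 11.9 and 13.6 FPKM in SKNMC.

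Taken pair by pair, PSMB9 was 0.488% of the sum of PSMB9 and PSMB6 in A673 with DMSO and 18.3% in SKNMC. PSMB8 was 2.70% and 11.5% of the sum of PSMB8 and PSMB5. PSMB10 was 7.60% and 10.7% of the sum of PSMB10 and PSMB7, so the gap between the lines was narrowest for this pair. PSMB9 overlaps PSMB8 by 569 bases and the peptide transporter gene TAP1 by 8771 bases, both on the opposite strand, and because the sources used here do not state whether strand was used in counting, reads of these neighbours cannot be told apart with certainty. TAP1, which carries peptides to MHC class I, measured 3.75, 3.37 and 4.77 FPKM in A673 and 10.6, 7.76 and 6.13 FPKM in SKNMC.

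**Figure D3:**
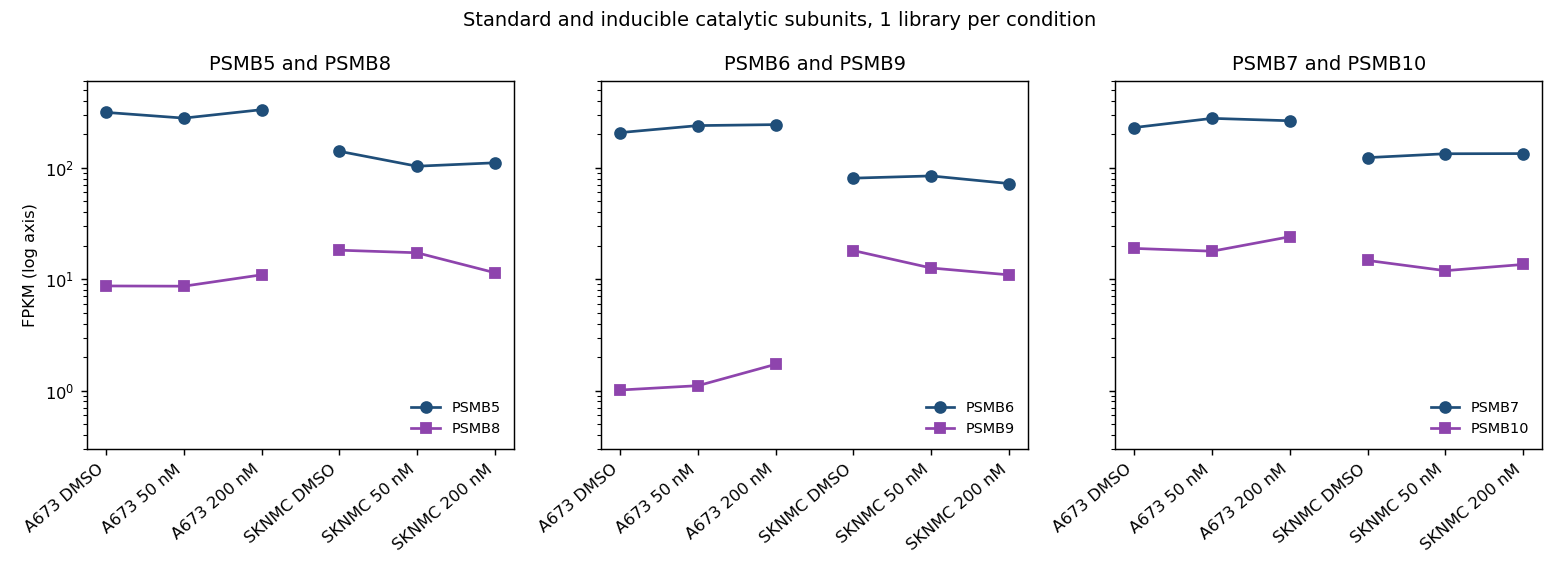
FPKM (y axis, log scale) of each standard catalytic gene (blue circles) and its inducible counterpart (purple squares) in the 6 libraries (x axis), 1 library per condition, with lines joining the libraries of a cell line. PSMB9 stands at 1.01 FPKM in A673 with DMSO and 18.1 FPKM in SKNMC with DMSO, while the standard genes stand above 70 FPKM in every library.

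The base genes kept near their DMSO level in A673 and were lower in SKNMC. Their median log2 fold change was 0.010 and 0.030 in A673 and -0.25 and -0.35 in SKNMC. Relative to all active genes it was 0.28 and 0.42 in A673 and 0.065 and 0.21 in SKNMC. This was positive under each scaling, but at 50 nM in SKNMC only 0.0084 when divided by the ribosomal protein genes. With a minimum of 20 FPKM it was -0.057 at 50 nM in SKNMC, and without a minimum level -0.20 and -0.26 in that line. No base gene was 1.5-fold lower in A673, and in SKNMC PSMC2 was so at 50 nM and PSMC2 and PSMC6, both ATPases of the ring, at 200 nM. PSMC6 (chr14:53173889-53195305), with the lowest mean of the class, measured 131, 107 and 90.2 FPKM in A673 and 64.9, 48.3 and 33.9 FPKM in SKNMC and was lower at each higher dose in both lines. Its log2 fold changes were -0.29 and -0.53 in A673 and -0.42 and -0.91 in SKNMC.

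PSMD2, the large scaffold subunit that docks ubiquitin carriers (chr3:184016496-184026842), went the other way. It measured 285, 398 and 337 FPKM in A673 and 189, 266 and 284 FPKM in SKNMC, above DMSO in each treated library, with log2 fold changes of 0.48 and 0.24 in A673 and 0.49 and 0.58 in SKNMC, the highest of the 48 rows at 50 nM in both lines and at 200 nM in SKNMC. PSMD2 lies within the span of EIF2B5 on the same strand, whose level with DMSO was 38.0 FPKM in A673 and 36.6 FPKM in SKNMC. The other scaffold subunit, PSMD1, had log2 fold changes of 0.19 and -0.023 in A673 and 0.061 and -0.37 in SKNMC, and the ubiquitin receptor PSMD4 had -0.18 and 0.039 in A673 and -0.49 and -0.35 in SKNMC, so the non-ATPase subunits of the base did not move alike.

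The lid split into genes that stayed near DMSO and genes that were much lower at the high dose. Its 8 genes had a median log2 fold change of -0.052 and -0.43 in A673 and -0.26 and -1.01 in SKNMC. Relative to all active genes the lid median was 0.22 and -0.036 in A673 and 0.057 and -0.45 in SKNMC, and its sign at 200 nM in A673 and at 50 nM in SKNMC flipped between scalings. No lid gene was 1.5-fold lower at 50 nM in either line. At 200 nM, PSMD7, PSMD11 and PSMD12 were at least 1.5-fold lower in A673, and these and PSMD6 and PSMD14 were so in SKNMC, where 4 of the 5 were at least 2-fold lower. These 3 and 5 of 8 genes stand beside 41.1% and 48.4% of all active genes, and the 4 at least 2-fold lower in SKNMC beside 27.6%. The A673 share was below the background and the SKNMC shares were above it. With 8 genes and 1 library per condition, nothing particular to the lid is read from the counts.

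PSMD7, the partner of the lid deubiquitinase (chr16:74330672-74340186), measured 103, 75.1 and 55.5 FPKM in A673 and 47.9, 32.5 and 17.5 FPKM in SKNMC and was lower at each higher dose in both lines. Its log2 fold changes were -0.44 and -0.87 in A673 and -0.55 and -1.40 in SKNMC. PSMD12, a structural lid subunit (chr17:65334031-65362743), stood at 95.7, 92.2 and 49.5 FPKM in A673 and 40.6, 44.7 and 15.8 FPKM in SKNMC. The low-dose libraries of PSMD12 lay near DMSO and the high-dose libraries well under it, with log2 fold changes of -0.052 and -0.94 in A673 and 0.13 and -1.31 in SKNMC.

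PSMD11, a structural subunit known to raise proteasome activity in stem cells (chr17:30771278-30810336), measured 74.7, 68.0 and 43.6 FPKM in A673 and 67.4, 61.2 and 37.2 FPKM in SKNMC, again with the drop at the high dose. PSMD14, the deubiquitinase itself, had log2 fold changes of -0.018 and -0.39 in A673 and -0.40 and -1.18 in SKNMC, and PSMD6 had -0.32 and -0.47 in A673 and -0.49 and -1.39 in SKNMC. PSMD8 (chr19:38865175-38874464), with the highest mean of the lid, measured 187, 201 and 222 FPKM in A673 and 123, 115 and 121 FPKM in SKNMC, so that no treated library was far from DMSO. PSMD3 and PSMD13, the remaining lid genes, had log2 fold changes at 200 nM of -0.019 and -0.0090 in A673 and -0.36 and -0.43 in SKNMC.

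From the low to the high dose 5 of 8 lid genes stepped down in A673 and 7 of 8 in SKNMC. Of all active genes 51.7% and 62.7% did so, and these are descriptions of single libraries. In SKNMC the median log2 ratio of 200 nM over 50 nM was -0.74 for the 8 lid genes, beside -0.14 for all active genes. In that line 7 of 48 rows were at least 1.5-fold lower at 200 nM than at 50 nM, beside 22.5% of all active genes, and 5 of the 7 were lid genes. The largest step was that of PSMD12, -1.44 in SKNMC and -0.88 in A673. In A673 the lid median was -0.26 beside -0.019 for all active genes, and 4 of 48 rows passed 1.5-fold, beside 18.1%: PSMD11, PSMD12, PSME4 and PSMG4. The 3 inducible catalytic genes went the other way in A673, with a median step of 0.37, and had -0.19 in SKNMC. The core genes had medians between -0.24 and 0.040 for this step in their 3 classes and both lines, and none of them passed 1.5-fold.

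The activators went different ways. PSME1 and PSME2 encode PA28 alpha and beta, an interferon-inducible cap of the core. PSME1 (chr14:24605366-24608176) measured 92.5, 114 and 142 FPKM in A673 and 73.3, 88.0 and 82.4 FPKM in SKNMC, above DMSO in each treated library and, with a log2 fold change of 0.61, the only row at least 1.5-fold higher in any contrast. PSME2 (chr14:24612573-24616779) measured 64.7, 80.9 and 92.4 FPKM in A673 and 50.3, 56.2 and 46.8 FPKM in SKNMC and was above DMSO at both doses in A673 and at the low dose in SKNMC. The gene of the third PA28 subunit, PSME3, a nuclear activator (chr17:40976401-40995774), was lower instead, at 70.4, 46.5 and 51.8 FPKM in A673 and 96.4, 56.0 and 46.3 FPKM in SKNMC.

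The log2 fold changes of PSME3 were -0.59 and -0.44 in A673 and -0.77 and -1.04 in SKNMC, past 1.5-fold at 50 nM in both lines and at 200 nM in SKNMC. PSME3 overlaps BECN1 on the opposite strand by 8967 bases. PSME4, which encodes the nuclear activator PA200 (chr2:54091203-54197977), measured 28.7, 33.1 and 20.2 FPKM in A673 and 25.9, 27.8 and 18.7 FPKM in SKNMC: in both lines the low-dose library stood above DMSO and the high-dose library under it. PSMF1, which encodes PI31, described as a proteasome inhibitor (chr20:1093905-1160596), measured 47.9, 50.3 and 50.4 FPKM in A673 and 56.6, 56.3 and 38.1 FPKM in SKNMC and was set apart only by its lower level at 200 nM in SKNMC. Over these 5 genes the median log2 fold change was 0.20 and 0.073 in A673 and 0.10 and -0.45 in SKNMC, and relative to all active genes it was 0.47 and 0.47 in A673 and 0.41 and 0.10 in SKNMC. At 200 nM in SKNMC this relative value was only 0.013 when divided by the ribosomal protein genes. With a minimum of 20 FPKM it was -0.022 there, and without a minimum level -0.36.

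The assembly chaperones were lower than any other class of the particle at 50 nM in both lines and at 200 nM in A673. Their median log2 fold change was -0.49 and -1.03 in A673 and -0.49 and -0.94 in SKNMC, and relative to all active genes it was -0.22 and -0.64 in A673 and -0.18 and -0.39 in SKNMC, negative in each contrast and under each scaling. Of the 7 genes, 3 and 4 were at least 1.5-fold lower in A673 at 50 and 200 nM and 3 and 5 in SKNMC, beside 31.6% and 41.1% of all active genes in A673 and 33.2% and 48.4% in SKNMC. PSMD9 and PSMD10, chaperones of the base, were never among them.

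PSMG2, which pairs with PSMG1 to build the alpha ring (chr18:12658736-12725739), was the lowest of the class. It measured 58.8, 27.6 and 18.3 FPKM in A673 and 44.8, 16.8 and 12.5 FPKM in SKNMC, lower at each higher dose in both lines, and was at least 2-fold lower in all 4 contrasts, with log2 fold changes of -1.06 and -1.63 in A673 and -1.36 and -1.76 in SKNMC. Its partner PSMG1 measured 82.7, 59.4 and 60.6 FPKM in A673 and 56.2, 34.1 and 19.7 FPKM in SKNMC, past 1.5-fold in SKNMC only, with log2 fold changes of -0.47 and -0.44 in A673 and -0.70 and -1.47 in SKNMC. PSMG2 overlaps CEP76 on the opposite strand by 40946 bases, at a DMSO level of 12.6 FPKM for CEP76 in A673 and 6.32 FPKM in SKNMC.

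PSMG3 (chr7:1606965-1610641) and PSMG4 (chr6:3231636-3303607) form the other chaperone pair of the core. PSMG3 measured 37.8, 17.6 and 18.0 FPKM in A673 and 38.4, 25.0 and 19.5 FPKM in SKNMC and had log2 fold changes of -1.06 and -1.03 in A673 and -0.60 and -0.94 in SKNMC, so that it was at least 1.5-fold lower in all 4 contrasts. PSMG4 stood at 22.1, 15.5 and 9.03 FPKM in A673 and 19.6, 13.6 and 7.94 FPKM in SKNMC, and its log2 fold changes of -0.49 and -1.21 in A673 and -0.49 and -1.20 in SKNMC passed 1.5-fold at the high dose in both lines. PSMG4 shares its span with SLC22A23 and TUBB2B on the opposite strand, the latter at 45.5 FPKM in A673 and 2.94 FPKM in SKNMC with DMSO.

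PSMD5, a chaperone of the base (chr9:123577773-123605262), measured 25.5, 12.7 and 8.85 FPKM in A673 and 9.40, 6.63 and 4.54 FPKM in SKNMC. It stepped down with dose in both lines, with log2 fold changes of -0.96 and -1.43 in A673 and -0.45 and -0.91 in SKNMC. PSMD9 (chr12:122326636-122356203), with the highest mean of the chaperones, measured 44.8, 49.3 and 47.5 FPKM in A673 and 33.7, 33.1 and 29.0 FPKM in SKNMC and stayed near DMSO. PSMD10 lay between, with log2 fold changes of -0.17 and -0.017 in A673 and -0.35 and -0.44 in SKNMC.

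**Figure D4:**
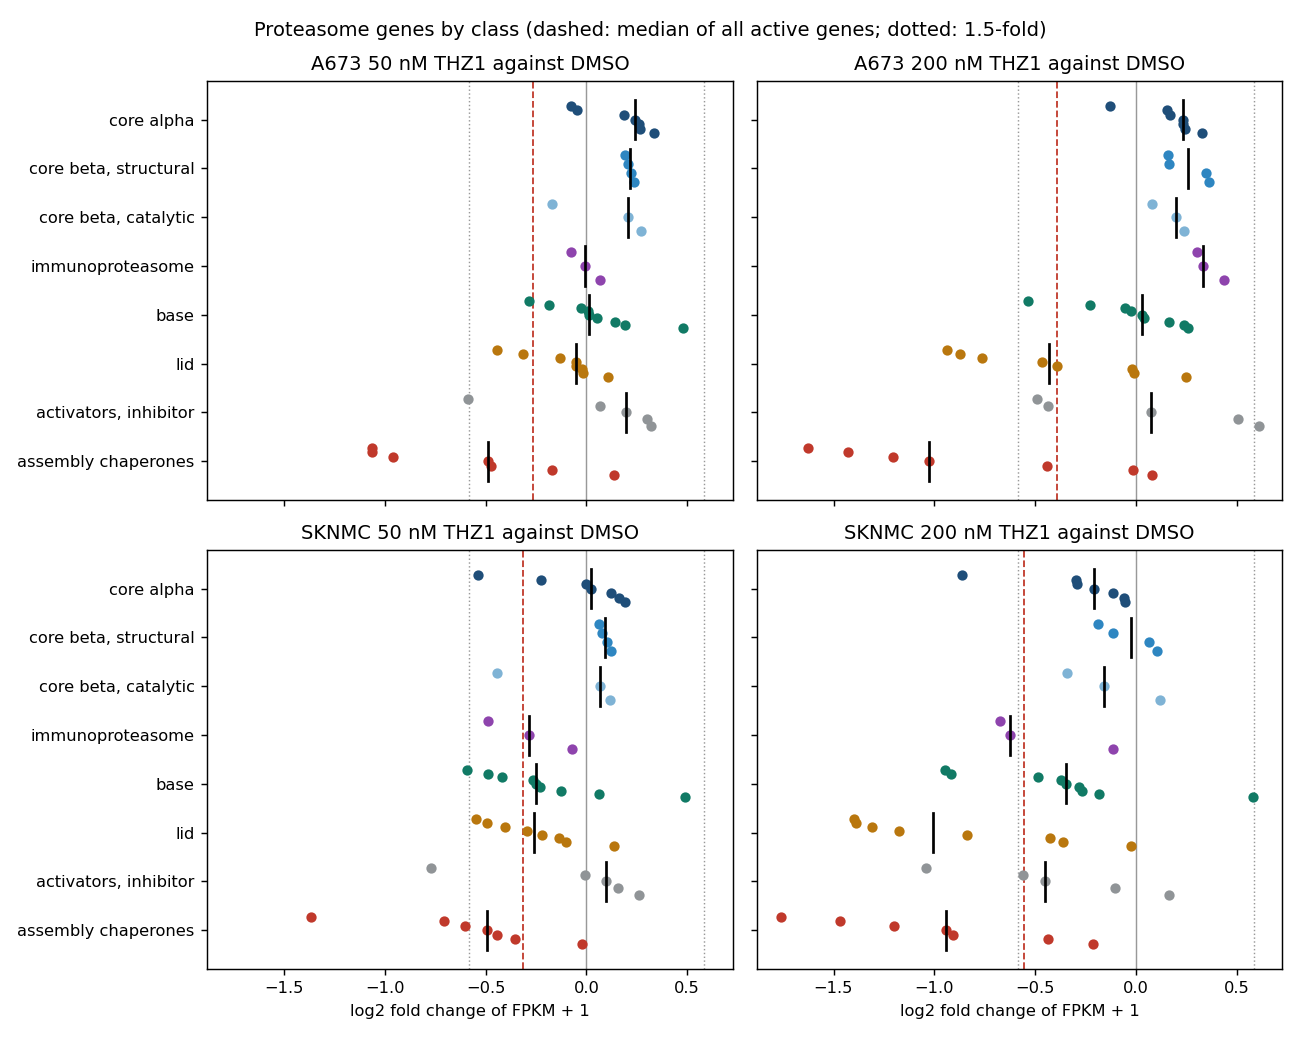
Log2 fold change of FPKM + 1 (x axis) of each active proteasome gene, 1 point per gene, by class (y axis) in the 4 contrasts of THZ1 against DMSO, with black bars at class medians, a red dashed line at the median of all active genes and dotted lines at 1.5-fold. The medians of the core classes, 0.21 to 0.24 at 50 nM in A673, lie right of the dashed line in each contrast. In SKNMC the points of PSMA5 at both doses and of PSMB5 at 50 nM lie left of it. The chaperone medians of -0.49 and -1.03 in A673 and -0.49 and -0.94 in SKNMC lie left of the dashed line. The lid points spread further apart at 200 nM than at 50 nM, and where points lie against 0 moves with the scaling.

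Outside the particle, the readthrough row over PSMA2 measured 7.37, 1.28 and 1.41 FPKM in A673 and 8.36, 1.63 and 1.05 FPKM in SKNMC, with log2 fold changes of -1.88 and -1.79 in A673 and -1.83 and -2.19 in SKNMC, the lowest of the 48 rows in each contrast. The PSMA2 row itself, which shares 15315 bases with it on the same strand, measured 148, 175 and 175 FPKM in A673 and 139.5, 156 and 129 FPKM in SKNMC, and how reads were split between the rows cannot be told apart from FPKM. PSMC3IP measured 11.0, 6.85 and 10.8 FPKM in A673 and 13.8, 8.98 and 10.2 FPKM in SKNMC, lowest at 50 nM in both lines, with log2 fold changes of -0.62 and -0.033 in A673 and -0.57 and -0.41 in SKNMC.

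The lines ranked the rows alike but not at the same level. The Spearman correlation of log2 fold changes between A673 and SKNMC over the 48 rows was 0.88 at 50 nM and 0.84 at 200 nM, beside 0.84 and 0.82 over 10383 genes active in both; the points are genes of the same 4 libraries at each dose, so these are descriptions. On the raw scale 42 and 43 of 48 rows had a lower log2 fold change in SKNMC than in A673, beside 53.5% and 62.2% of all genes. At least 1.5-fold lower in both lines were 4 rows at 50 nM, beside 25% of all genes, and 8 rows at 200 nM, beside 36%. The 4 were PSME3, PSMG2, PSMG3 and the readthrough row, and the 8 were PSMD7, PSMD11, PSMD12, PSMD5, PSMG2, PSMG3, PSMG4 and the readthrough row.

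The rows that remained at least 1.5-fold lower under all 4 scalings were fewer. They were PSMD5, PSMG2, PSMG3 and the readthrough row at 50 nM in A673, and these and PSMG4 at 200 nM. In SKNMC they were PSMG2 and the readthrough row at 50 nM. At 200 nM in SKNMC there were 8, PSMD6, PSMD7, PSMD12, PSMD14, PSMG1, PSMG2, PSMG4 and the readthrough row.

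Promoters are shown for 4 members that moved differently, to show the antioxidant response element core (TGACNNNGC, read on both strands), the letters to which NRF1 and the related factor NRF2 are known to bind. Sequences are those of RefSeq (GRCh38.p14), found letter for letter in GRCh37, 5′ to 3′ on the gene's strand from 250 bases before the RefSeq start up to the start of the gene in the deposited table. The match stands in capitals. PSMG2 and PSMD12 were at least 1.5-fold lower at 200 nM in both lines, and PSMB3 and PSMD3 were not in either. RefSeq gives another PSMG2 promoter (chr18:12702792-12703091 in GRCh38), which is not shown and has no such core. The PSMG2 stretch is chr18:12658487-12658735 on the plus strand, that of PSMD12 is chr17:65362744-65362943 on the minus strand, that of PSMB3 is chr17:36908744-36908987 on the plus strand and that of PSMD3 is chr17:38136810-38137048 on the plus strand, all in GRCh37.
PSMG2: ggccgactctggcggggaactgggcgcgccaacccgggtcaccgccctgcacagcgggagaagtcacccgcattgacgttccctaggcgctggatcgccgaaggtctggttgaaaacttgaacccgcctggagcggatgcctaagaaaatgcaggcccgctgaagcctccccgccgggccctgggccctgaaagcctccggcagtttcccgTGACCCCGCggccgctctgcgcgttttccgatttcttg
PSMD12: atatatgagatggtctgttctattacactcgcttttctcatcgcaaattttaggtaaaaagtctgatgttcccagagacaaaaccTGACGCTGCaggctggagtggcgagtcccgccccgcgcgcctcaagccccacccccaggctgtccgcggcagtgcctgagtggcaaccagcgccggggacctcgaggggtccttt
PSMB3: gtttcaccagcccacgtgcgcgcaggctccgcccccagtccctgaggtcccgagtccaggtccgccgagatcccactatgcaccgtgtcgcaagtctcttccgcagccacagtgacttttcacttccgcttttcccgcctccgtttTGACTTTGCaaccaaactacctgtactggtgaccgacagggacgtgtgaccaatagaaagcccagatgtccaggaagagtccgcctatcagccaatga
PSMD3: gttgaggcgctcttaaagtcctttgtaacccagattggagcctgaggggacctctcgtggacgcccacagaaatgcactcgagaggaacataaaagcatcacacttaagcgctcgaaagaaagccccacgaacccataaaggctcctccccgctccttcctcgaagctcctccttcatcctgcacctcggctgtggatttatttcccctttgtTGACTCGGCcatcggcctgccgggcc

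RefSeq gave 53 promoters for 43 of the 49 symbols, each of 250 bases before and 50 after the start. The core was found in 15 of the 53, 28.3%, beside 13.3% of all 35116 promoters given, and the 15 belonged to 15 genes. Of these, PSMA4 and PSMB3 are core genes, PSMB9 is inducible, PSMC4, PSMC5 and PSMD1 are base genes, PSMD3 and PSMD12 lid genes, PSME1, PSME2 and PSME4 activators, and PSMD5, PSMD9, PSMG1 and PSMG2 chaperones. GCTGAGTCA, a stricter form of this core with every letter fixed, was in none of the 53 beside 0.561% of all promoters. The heat shock element core GAANNTTC was in 3.77%, those of PSMC3IP, beside 6.77%. The 53 promoters had a median of 62% G and C letters, beside 58.7% for all promoters, which were not limited to active genes. The part of this letter content in the shares was not tested. For PSMA4, PSMC5 and PSMG2 the core was absent from another promoter of the same gene. Genes with the core in a promoter thus included members that were lower, such as PSMG2, and members that were not, such as PSME1.

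Proteasome genes differed from other active genes in their transcripts. Over the 47 rows active in both lines with an annotated transcript the median 3' UTR was 366 bases, beside 1341 bases over all active genes, and the pentamer ATTTA, found in AU-rich elements of unstable mRNAs, was in the 3' UTR of 51.1% of rows, beside 73.7%. Ranked across the 47 rows, log2 fold change and 3' UTR length had a Spearman correlation of -0.31 and -0.49 in A673 at 50 and 200 nM and -0.25 and -0.45 in SKNMC. Across all active genes it was -0.023 and -0.20 in A673 and 0.025 and -0.13 in SKNMC. These correlations run across genes of 1 pair of libraries each, and genes are not independent replicates.

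**Figure D5:**
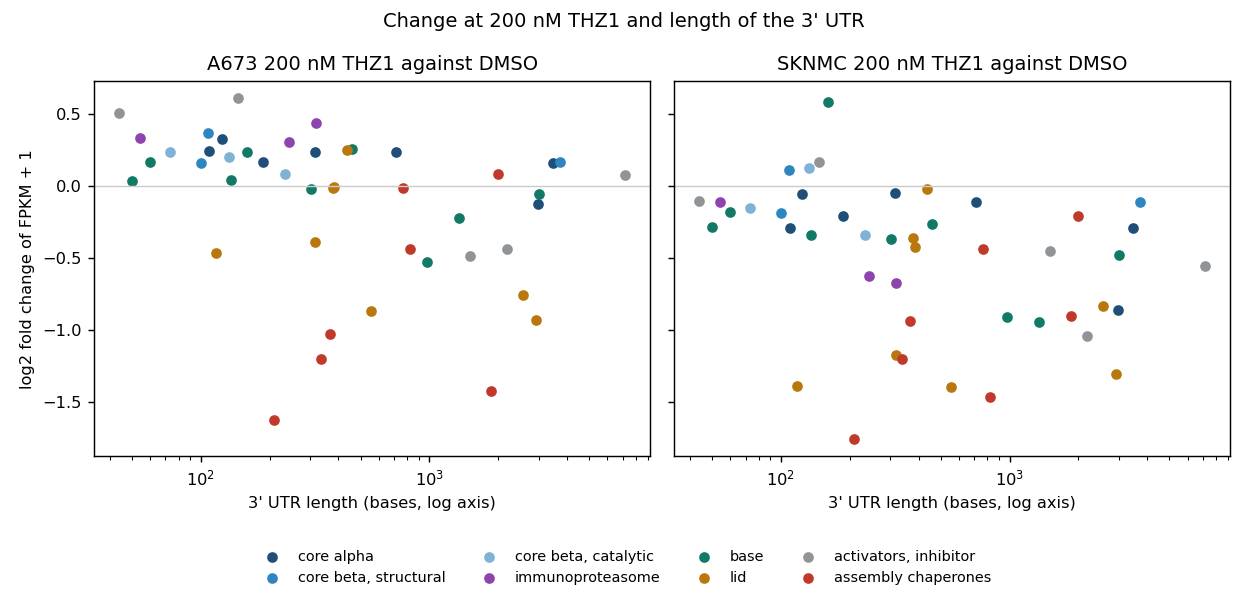
Log2 fold change of FPKM + 1 at 200 nM THZ1 (y axis) against the length of the 3' UTR in bases (x axis, log scale) for the proteasome genes of the 8 classes, 1 point per gene coloured by class, in A673 (left) and SKNMC (right). Genes with shorter 3' UTRs tend to lie higher, with a Spearman correlation of -0.49 in A673 and -0.45 in SKNMC over 47 rows, but PSMG2 and PSMD6 lie low with short ones. The 47 rows include PSMC3IP and the readthrough row over PSMA2, which are not plotted. Without the readthrough row the correlation was -0.49 and -0.45 over 46 rows.

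The DMSO level also went with the change. Between log2 fold change and the DMSO FPKM of the line the Spearman correlation was 0.48 and 0.36 across the 48 rows in A673 at 50 and 200 nM and 0.45 and 0.57 in SKNMC, beside 0.22 and 0.20, and 0.20 and 0.14, over all active genes. The DMSO value enters both quantities, and more abundant genes, mostly of the core, were higher in the ranking than the sparser chaperones. The part of transcript length, level and class in each other's relation was not tested.

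Genes that work with the proteasome were taken from a fixed list, of which 42 were found and active in both lines. At least 1.5-fold lower were 6 and 10 of the 42 in A673 at 50 and 200 nM and 4 and 18 in SKNMC, beside 31.6%, 41.1%, 33.2% and 48.4% of all active genes. As much higher, in the same order, were 2, 1, 0 and 2, beside 1.73%, 1.65%, 2.33% and 2.69%. NFE2L1, which encodes NRF1, measured 61.7, 40.7 and 47.3 FPKM in A673 and 37.1, 28.2 and 23.1 FPKM in SKNMC, with log2 fold changes of -0.59 and -0.38 in A673 and -0.38 and -0.66 in SKNMC. DDI2, the protease that activates NRF1, measured 10.5, 6.51 and 2.38 FPKM in A673 and 14.8, 10.2 and 3.57 FPKM in SKNMC, at least 2-fold lower at 200 nM in both lines. NFE2L2, which encodes NRF2, stood at 42.2, 38.0 and 14.1 FPKM in A673 and 42.1, 30.8 and 8.03 FPKM in SKNMC, also at least 2-fold lower at 200 nM in both. The same call at 200 nM held for 20.6% of the 10383 genes active in both lines, so nothing particular to these genes is read from it.

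AKIRIN2, which carries assembled proteasomes into the nucleus, differed between the doses in direction. It measured 34.6, 38.0 and 8.58 FPKM in A673 and 33.7, 36.6 and 10.0 FPKM in SKNMC, above DMSO at 50 nM and at least 2-fold lower at 200 nM in both lines. ZFAND5, a proteasome-binding activator, measured 78.8, 45.0 and 17.7 FPKM in A673 and 59.0, 56.9 and 24.9 FPKM in SKNMC. The shuttle gene UBQLN2 stood at 17.6, 11.5 and 7.03 FPKM in A673 and 21.7, 16.0 and 9.90 FPKM in SKNMC. ZFAND5 and UBQLN2 were both at least 2-fold lower at 200 nM in both lines, beside 20.6% of all genes active in both.

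IRF1, the interferon-responsive factor known to drive the inducible subunits, measured 2.32, 0.540 and 0.566 FPKM in A673 and 5.25, 1.89 and 2.05 FPKM in SKNMC. It was the only gene of the list at least 2-fold lower at both doses in both lines. Of all genes active in both lines, 11.3% were so in both at 50 nM and 20.6% at 200 nM. The list holds 4 subunit or chaperone genes without a PSM symbol. Log2 fold changes were 0.20 and 0.078 in A673 and -0.075 and -0.27 in SKNMC for POMP, the core maturation factor, and 0.35 and 0.15 in A673 and 0.12 and 0.023 in SKNMC for ADRM1, a ubiquitin receptor of the particle. SHFM1, which encodes a small lid subunit, had 0.24 and 0.22 in A673 and 0.30 and 0.28 in SKNMC. PAAF1, a chaperone of the base, measured 6.13, 4.90 and 5.73 FPKM in A673 and 16.5, 6.66 and 6.97 FPKM in SKNMC, at least 2-fold lower at both doses in SKNMC and at none in A673, a difference between the lines that was not tested.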

How the data were processed

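TruSeq libraries were read by the authors as 100-bp paired ends. The authors aligned them to hg19 with STAR, with Ensembl 75 as annotation, and estimated FPKM with StringTie, as the study's methods state, while the submitters' processing notes name STAR and Cufflinks; strand use in counting is not given in the sources used here. The deposited FPKM columns were used. By its title the table holds averages, although every condition has 1 labelled library. The 4 deposited columns of log2 fold changes were not used. Depth is unknown from FPKM, so no counting interval was given.

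Log2 fold changes were log2((FPKM + 1) / (FPKM + 1 of DMSO)) within a line, over protein-coding genes above 1 FPKM with DMSO, with thresholds of 1.5-fold and 2-fold. No test was made. Transcript features came from GENCODE release 44 on GRCh37 and promoters from RefSeq. Python 3.11, pandas 2.3.3 and scipy 1.17.1 were used, and scripts were checked on simulated data.

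Members and lists were chosen with earlier results of these data known. Values in every library were given for the catalytic beta genes, activators and PSMF1, for the highest and lowest mean of every other class, for members past 1.5-fold in the same direction in both lines, and for NFE2L1, TAP1 and listed companions past 2-fold in both lines at a dose; other named genes were chosen after their values were seen. Alternatives were the pseudocount, the minimum level, 3 scalings, the background, each catalytic pair alone and the rows counted; the median without the readthrough row was added after seeing the data.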

Additional observations from a re-analysis of the deposited data

Results flagged for a closer look

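In 7 of 48 rows the level was above DMSO at both doses in A673 and below DMSO at both doses in SKNMC, and in none was it the reverse. The same pattern was seen in 463 of 10383 genes active in both lines, 4.46%, and the reverse in 84. Each line has 1 library per dose, so no test of this difference was made: it was not tested. Given as the mean log2 fold change of A673 minus that of SKNMC, it was 0.40 for PSMA3, an alpha subunit, 0.83 for PSMB9, an inducible catalytic subunit, and 0.45 and 0.22 for PSMC4 and PSMC5, ATPases of the base. It was 0.24 for PSMD8 of the lid, 0.35 for PSMF1 and 0.23 for the chaperone PSMD9. When each change was taken relative to the median of all active genes of its contrast, PSMB9 alone kept opposite signs in the lines.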

How the results depend on the processing

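Values in parentheses are in the order A673 50 and 200 nM, then SKNMC 50 and 200 nM, on the log2 scale unless they are counts. With 1 library per condition no replicate could be left out, and no paired analysis was possible because the labels give no replicate numbers and each value sets 1 library against 1 other of its line, with no test. A common 75th percentile shifted the median over all active genes by 0.22, 0.32, 0.25 and 0.47, dividing by the ribosomal protein genes shifted it by -0.20, -0.29, -0.34 and -0.48, and a common sum shifted it by at most 0.026 either way. The cause of the shifts with scaling was not tested.

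Under the 75th percentile scaling the medians of the proteasome rows were 0.24, 0.42, 0.066 and 0.18, the last pair with another sign than reported. Counts of rows at least 1.5-fold lower became 5, 2 and 8 in A673 200 nM and SKNMC 50 and 200 nM, and of rows higher 2, 15, 1 and 5. Class medians became 0.50, 0.60, 0.31 and 0.35 for alpha genes, 0.47, 0.62, 0.38 and 0.53 for structural beta genes, 0.46, 0.56, 0.35 and 0.39 for catalytic genes and 0.21, 0.68, -0.013 and -0.10 for inducible genes. The base median at 200 nM in A673 became 0.39, the lid median at 50 nM in A673 0.20, and the activator median at 50 nM 0.45 in A673 and 0.38 in SKNMC. In all, 9 of the 32 class medians changed sign under this scaling, all from negative to positive, and 2 did so under a common sum.

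Under the ribosomal scaling the row medians were -0.22, -0.29, -0.63 and -0.95, reversed in A673. Counts of lower rows became 14, 25 and 43 of 48 in A673 200 nM and SKNMC 50 and 200 nM. They stood beside 54.8%, 56.0% and 77.2% of all active genes, so the row share was above the background at 200 nM in SKNMC. No row was higher in A673 at 200 nM. Structural beta medians became -0.016, -0.094, -0.32 and -0.62 and inducible medians -0.21, -0.0046, -0.66 and -1.17. Catalytic medians at 200 nM were -0.15 in A673 and -0.75 in SKNMC. In SKNMC the base median at 50 nM was -0.65, and the lid medians were -0.66 and -1.59. Of the 32 class medians 14 changed sign here, all from positive to negative.

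Without a minimum level the difference between the rows and all genes was 0.0087, 0.063, -0.13 and -0.27, reversed in SKNMC, since genes at or near 0 then enter the median of all genes. With a minimum of 20 FPKM it was 0.12, 0.20, 0.066 and 0.090, and under the ribosomal scaling 0.25, 0.39, 0.030 and 0.080. The 2-fold threshold counted 3, 5, 2 and 9 lower rows and 0 higher in A673 at 200 nM. A pseudocount of 0.1 counted 2 higher rows in A673 at 200 nM, and a common sum 1 higher row in SKNMC at 200 nM. By single pairs the inducible share in A673 with DMSO, 50 nM and 200 nM was 0.488%, 0.462% and 0.702% for PSMB9 and 7.60%, 6.04% and 8.35% for PSMB10. The other 303 values of medians, counts and shares stayed within the spread across members, within 1.5 times or within the class range, those without PSMC3IP or the readthrough row among them. Of the single-gene values 668 kept their side of the 1.5-fold threshold and 100 did not. No counting limit can be given, because FPKM holds no reads.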

Other observations

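The antisense RNA PSMG3-AS1 is listed as a lincRNA and overlaps PSMG3 by 934 bases. It measured 1.06, 0.886 and 0.811 FPKM in A673 with DMSO, 50 nM and 200 nM THZ1, and 1.5, 1.37 and 1.49 FPKM in SKNMC. In all, 22 of the 50 rows overlap another listed gene, 16 of them on the opposite strand and 9 on the same strand.

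Of the genes of antigen presentation, B2M, the light chain of MHC class I, measured 2371, 3115 and 3576 FPKM in A673 and 1712, 2302 and 2539 FPKM in SKNMC, above DMSO in each treated library, and HLA-B stood at 3.63, 4.75 and 5.30 FPKM in A673 and 47.4, 64.1 and 59.3 FPKM in SKNMC.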
